A study of Mus musculus with 2 samples.

Results

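Coding exon peaks are DNase I hypersensitive sites in the protein-coding part of genes. A peak was counted when its midpoint lay in an annotated coding sequence (CDS) on chromosomes 1 to 19 and its nearest edge was more than 1 kb from every annotated transcription start site (TSS). Replicate 1 held 1535 such peaks among 71313, and replicate 2 held 1936 among 108103 (1735.5 ± 283.55, SD, n = 2). DNase-seq was measured in left cerebral cortex of adult male B6CASTF1/J mice, F1 hybrids of C57BL/6 and the wild-derived strain CAST, aged 18 to 20 months. There is 1 group of 2 libraries and no second condition, so every comparison is a description without a test. The labels give both libraries separate tissue samples under the same donor entry, so the spread between them may be technical. Bulk tissue mixes neurons, glia and vessel cells, and a peak cannot be assigned to one of them here.

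DNase I cuts DNA where nucleosomes are absent or displaced, and such open stretches collect cuts. Most open sites lie at promoters and in introns or between genes, where transcription factors bind. Coding exons carry the genetic code, and some also hold binding sites for transcription factors, so that the same bases can serve both. A footprint is a short stretch inside a peak with fewer cuts than its surroundings, as a bound protein can leave.

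The sequences of 4 coding exon peaks are shown because they were the strongest in both libraries, in genes with a standard symbol, among those that lay wholly in coding sequence and were at most 300 bp wide. They are reference sequence of GRCm38.p6 (mm10), 5′ to 3′ on the strand of the gene, over the interval of replicate 1. Capitals mark bases inside footprints of both libraries. They come from coding exon 1 of 5 of Angptl6 (chr9:20878301-20878520, minus strand), coding exon 5 of 5 of Spi1 (chr2:91115161-91115320, plus strand), coding exon 30 of 30 of Notch4 (chr17:34587501-34587740, plus strand) and coding exon 4 of 4 of Synpo2l (chr14:20661061-20661280, minus strand).
Angptl6: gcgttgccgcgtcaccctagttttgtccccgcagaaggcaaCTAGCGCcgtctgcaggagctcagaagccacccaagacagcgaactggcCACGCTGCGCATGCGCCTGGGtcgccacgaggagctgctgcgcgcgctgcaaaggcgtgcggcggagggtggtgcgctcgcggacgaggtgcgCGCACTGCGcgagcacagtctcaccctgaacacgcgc
Spi1: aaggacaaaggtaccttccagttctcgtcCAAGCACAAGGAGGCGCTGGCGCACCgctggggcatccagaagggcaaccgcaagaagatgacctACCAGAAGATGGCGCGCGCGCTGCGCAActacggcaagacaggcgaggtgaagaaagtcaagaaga
Notch4: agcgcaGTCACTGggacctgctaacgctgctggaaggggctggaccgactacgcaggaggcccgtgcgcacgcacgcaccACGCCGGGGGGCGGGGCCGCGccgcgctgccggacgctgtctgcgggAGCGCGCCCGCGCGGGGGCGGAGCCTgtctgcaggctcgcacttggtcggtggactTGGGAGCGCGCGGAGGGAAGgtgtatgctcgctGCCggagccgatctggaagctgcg
Synpo2l: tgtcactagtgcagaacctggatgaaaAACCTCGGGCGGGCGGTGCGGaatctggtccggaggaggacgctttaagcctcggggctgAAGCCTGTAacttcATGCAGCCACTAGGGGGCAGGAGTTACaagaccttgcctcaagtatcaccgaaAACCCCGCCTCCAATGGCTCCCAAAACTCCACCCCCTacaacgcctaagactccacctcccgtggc

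These sequences had 37 footprint bases common to both libraries in Angptl6, 54 in Spi1, 77 in Notch4 and 94 in Synpo2l. A search of both strands for 14 consensus sequences found 1 match in Angptl6, Notch4 and Synpo2l each, every one wholly in capitals. Angptl6 held the palindromic NRF1 consensus from base 97 of the printed sequence, outside the narrower peak of replicate 2, Notch4 the SP/KLF consensus GGGGCGGGG from base 88, and Synpo2l the CTCF consensus from base 108. Spi1 held none of the 14. A match is a description of the letters and does not show which protein was bound.

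Short footprinted windows are shown next for 4 coding exon peaks with a CTCF consensus in a footprint of both libraries, in order of mean signal. CTCF is the zinc finger protein that marks loop anchors and domain borders. Each window spans the footprints of both libraries on the strand of the gene, and capitals mark the consensus. The windows are chr5:124000980-124001012 in Hip1r (plus), chr14:20661153-20661179 in Synpo2l (minus), chr2:157030980-157031015 in Soga1 (minus) and chr6:37097525-37097553 in Dgki (minus).
Hip1r: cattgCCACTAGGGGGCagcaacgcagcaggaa
Synpo2l: atgcagCCACTAGGGGGCaggagttac
Soga1: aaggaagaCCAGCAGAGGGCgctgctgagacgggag
Dgki: aggtaagcgagcGCCACCTGCTGGcgagt

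In Synpo2l and Soga1 the consensus itself lay in coding sequence. In Hip1r and Dgki it lay outside, in peaks that cross an exon edge, and in Dgki it reads on the opposite strand. Outside CTCF, 1 window is shown for each of 4 other factors, the strongest with the site in coding sequence and, in each library, in a footprint and inside the peak of that library. The Angptl6 site is not counted by this rule. These 4 factors were chosen after their counts were seen. The Ankrd24 peak holds a TSS of the comprehensive GENCODE annotation, although not of the basic one used here. In Aloxe3 the consensus reads on the strand opposite to the gene. The windows are chr10:81643750-81643768 in Ankrd24 (plus strand, NRF1), chr11:69134218-69134246 in Aloxe3 (plus, NFI), chr3:53525859-53525883 in Frem2 (minus, EGR, GCGTGGGCG) and chr5:150466380-150466401 in Fry (plus, AP-1, TGANTCA).
Ankrd24: ctggaGCGCATGCGCgggg
Aloxe3: ttggacTGGCTGCTGGCCAAgacgtgggt
Frem2: ccccgtggGCGTGGGCGgctggcag
Fry: attccgaTGAGTCAtccgagga

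Coding exon peaks were denser per base than any other distal class. Distal peaks are those over 1 kb from every TSS. Coding exon peaks were 3.28% of the distal peaks of replicate 1 and 2.36% of those of replicate 2 (2.82 ± 0.649%, SD, n = 2), while distal coding sequence, 28.6 Mb, was 1.25% of distal bases. That is 53.7 and 67.7 peaks per Mb in the 2 libraries (60.7 ± 9.91). Introns had 23.6 and 42.1 per Mb (32.9 ± 13.1), and intergenic sequence 16.6 and 29.5. Exon sequence outside the CDS lay between, with 34.7 and 51.3. The order of the 4 classes was the same in both libraries, and the coding density of either library exceeded the intron density of both.

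**Figure D1:**
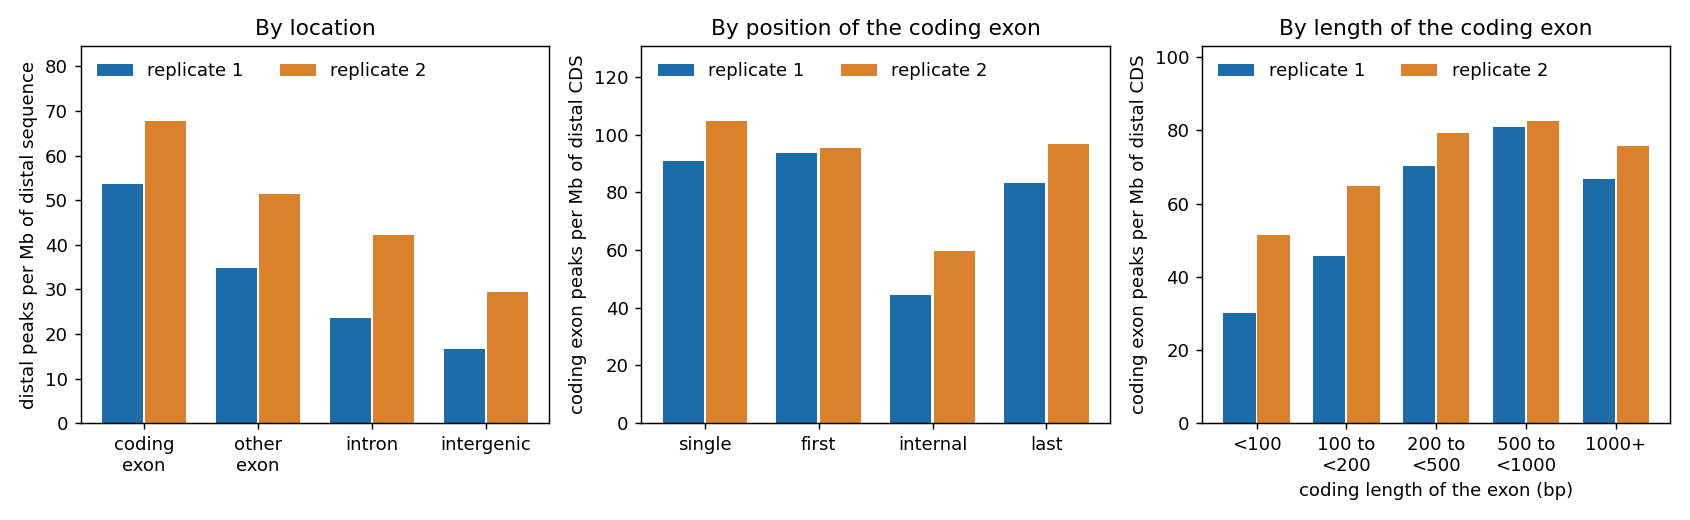
Bars give distal peaks per Mb of distal sequence in replicate 1 (blue) and replicate 2 (orange), by location (left), and coding exon peaks per Mb of distal CDS by position (middle) and coding length (right) of the exon. Coding exons have the highest bars on the left, and internal coding exons the lowest in the middle, at 44.4 and 59.7 per Mb.

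The median signal of coding exon peaks was below that of all distal peaks in both libraries. Peak signal is the value the authors gave each peak, whose scaling is not given in the sources used here. Its median in coding exons was 1.07 in replicate 1 and 0.807 in replicate 2 (0.938 ± 0.185, SD, n = 2). All distal peaks had medians of 1.12 and 0.834, intron peaks 1.13 and 0.881, and intergenic peaks 1.12 and 0.767, so that coding exons were above intergenic sequence in replicate 2. The highest coding exon signal was 8.51 and 7.37, against 46.6 and 45.3 among all distal peaks. Median width was 180 and 200 bp.

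Base composition set coding exon peaks apart from intron peaks in both libraries. Median GC content was 58.4% and 55.2% (56.8 ± 2.30%) in coding exons, against 52.0% and 49.0% in introns. The ratio of observed to expected CpG dinucleotides had a median of 0.522 and 0.448 in coding exons and of 0.251 and 0.240 in introns. Only 0.130% and 0.310% of coding exon peaks were mostly repeat sequence, against 3.16% and 2.29% of intron peaks. The part that base composition plays in the density was not tested.

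Distance from a TSS was 7770 and 9135.5 bp at the median, and 651 peaks (42.4%) and 913 peaks (47.2%) lay more than 10 kb away. Another 249 (16.2%) and 269 (13.9%) lay between 1 and 2 kb. The basic GENCODE annotation used here leaves out many transcript models. Of the coding exon peaks, 336 (21.9%) and 398 (20.6%) were within 1 kb of a TSS in the comprehensive GENCODE set, and 54 (3.52%) and 59 (3.05%) within 1 kb of a RefSeq gene start. Near the 1 kb limit, the closest peaks inside in replicate 1 were in Bhlhe22 (1001 bp, signal 0.548), Mex3b (1001 bp, 0.726) and Chst2 (1002 bp, 3.07). The closest outside were in Ascl4 (1000 bp, signal 2.38), Fjx1 (999 bp, 0.713) and 2610507B11Rik (995 bp, 0.686). In replicate 2 the closest inside were in Cnnm1 (1006 bp, signal 0.647), Neurog2 (1007 bp, 0.854) and Rab3a (1011 bp, 0.354). Those just outside were in Irs1 (996 bp, signal 1.64), Khnyn (994 bp, 0.747) and Cited2 (988 bp, 1.19).

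Position along the coding sequence was uneven. Each peak was given the host transcript with the best APPRIS rank, and its exon was called single, first, internal or last among that transcript's coding exons. Internal exons held 940 (61.2%) and 1263 (65.2%) of the coding exon peaks, although they make up 75.4% of distal coding bases. Last coding exons held 377 (24.6%) and 437 (22.6%) on 16.1% of the bases. First coding exons held 112 (7.30%) and 114 (5.89%) on 4.26%, and single coding exons 106 (6.91%) and 122 (6.30%) on 4.16%. Per Mb, this is 44.4 and 59.7 peaks in internal exons, 83.4 and 96.6 in last, 93.7 and 95.4 in first, and 90.8 and 105 in single exons. Internal exons were below each of the other positions in both libraries, whereas the order among single, first and last differed between the libraries.

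Exons that held a peak were longer at the median than all coding exons with distal coding sequence. For internal exons the median coding length was 175 and 166 bp with a peak, against 124 bp over all with distal coding sequence. For first exons it was 927 and 793.5 bp against 144 bp, for last exons 443 and 365 bp against 150 bp, and for single exons 1366.5 and 1320 bp against 1008 bp. On both sides an exon counted only where its coding part reaches beyond 1 kb from every TSS. The comparison medians cover 1 transcript per gene and count each exon once, while an exon with a peak counts once per peak. Longer exons have more room for a peak midpoint, and the part of this in the difference was not tested. Density by length was 30.1 and 51.3 peaks per Mb in exons under 100 bp. It was 45.7 and 64.7 from 100 to below 200 bp, 70.2 and 79.4 up to 500 bp, and 80.9 and 82.5 up to 1000 bp. From 1000 bp it was 66.7 and 75.7. Peaks in first and single exons were the richest in GC, with medians of 64.1% and 60.6% in first and 64.0% and 61.7% in single exons, against 56.8% and 53.8% in internal exons.

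Many of these peaks crossed a splice site. Of the coding exon peaks, 656 (42.7%) and 695 (35.9%) lay wholly in coding sequence. Internal exons held 266 (28.3%) and 312 (24.7%) peaks that stayed inside the exon. Another 202 and 292 reached over the acceptor edge only, 262 and 258 over the donor edge only, and 210 and 401 over both. In all, 81.3% and 74.9% of the bases of coding exon peaks were coding.

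Footprints were found in most coding exon peaks. At least 1 footprint was present in 1350 (87.9%) and 1637 (84.6%) of them (86.3 ± 2.40%, SD, n = 2), while the share over all distal peaks was 92.5% and 87.8%. Both coding shares were below that background. Coding exon peaks held 3557 and 4346 footprints in all, with a mean of 2.32 and 2.24 per peak and a maximum of 14 and 13. Counts of 5 or more were reached by 127 (8.27%) and 185 (9.56%) of the peaks. By position, the share with a footprint was 90.4% and 86.3% in internal exons, 87.5% and 85.6% in last, 78.6% and 75.4% in first and 77.4% and 71.3% in single exons. First and single exons were below internal and last exons in both libraries.

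Coding and non-coding bases of these peaks were footprinted at similar rates once their distance from the middle of the peak was matched. Of the footprint bases inside coding exon peaks, 85.5% and 80.8% were coding (83.1 ± 3.33%, SD, n = 2). Coding bases of these peaks were inside a footprint in 17.3% and 14.3% of cases, and their other bases in 12.7% and 10.1%. The midpoint of every such peak is coding by the rule, so the coding bases are nearer its middle. Within 40 bp, 23.7% of coding and 22.3% of other bases were footprinted in replicate 1, and 19.8% and 18.8% in replicate 2. From 40 to 80 bp the shares were 14.1% and 14.8% in replicate 1 and 11.1% and 11.1% in replicate 2. From 80 to 120 bp they were 6.97% and 6.25%, and 8.90% and 7.88%, with coding bases higher in both libraries.

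**Figure D2:**
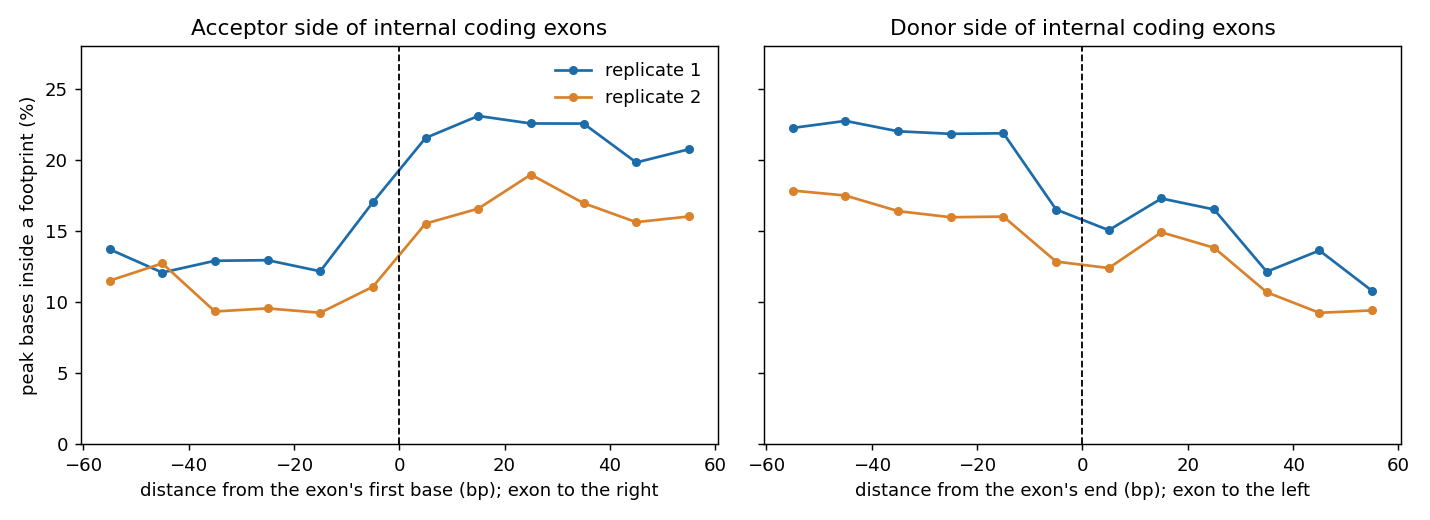
Lines give the percentage of peak bases inside a footprint in 10 bp steps around the acceptor (left) and donor (right) edge of internal coding exons of at least 60 bp, for replicate 1 (blue) and replicate 2 (orange), with a dashed line at the edge. In replicate 1 the share is 12.2% at 10 to 20 bp before the acceptor edge. It is 17.0% in the last 10 bp before that edge and 21.5% in the first 10 bp of the exon. Bases inside the exon are also nearer the middle of the peaks.

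Around splice sites the profile differed between the acceptor and the donor edge. In replicate 2 the share of footprinted bases was 9.24% at 10 to 20 bp before the acceptor edge and 15.5% in the first 10 bp of the exon. In the last 10 bp before the acceptor edge it was 17.0% in replicate 1 and 11.1% in replicate 2. On the donor side it was 21.9% and 16.0% at 10 to 20 bp before the end of the exon. At the donor edge it was 16.5% and 12.8% in the last 10 bp of the exon, and 15.0% and 12.4% in the first 10 bp of the intron. It was higher again from 10 to 20 bp into the intron, at 17.3% and 14.9%.

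Overlap between the libraries was counted from 1 shared base. In replicate 1, 1199 coding exon peaks (78.1%) had a partner in replicate 2, where the share over all distal peaks was 86.9%. In replicate 2, 1151 (59.5%) had a partner in replicate 1, where it was 49.2%. The coding share was thus below the background in one library and above it in the other, and introns had 86.6% and 48.3%. The lists differ in length. With the same number of strongest peaks taken from each library, the coding shares were 66.8% in replicate 1 and 78.6% in replicate 2, which turns the order of the libraries around. All distal peaks had 76.6% and 68.8% under the same setting, so that coding exons were again below the background in replicate 1 and above it in replicate 2. Most partners were themselves coding exon peaks, 1054 of 1199 and 1047 of 1151, and a further 105 and 80 had their midpoint in an intron.

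GC content separated the libraries in both coding exons and introns. In coding exon peaks of under 50% GC, 88.6% of replicate 1 and 38.9% of replicate 2 were found in the other library. From 50 to 60% GC the shares were 80.1% and 58.6%, and at 60% GC or more 73.2% and 78.1%. Intron peaks had 89.0% and 37.6%, 86.7% and 60.2%, and 77.8% and 70.4% in the same classes. Coding exons had more peaks in the top class, 43.6% and 29.2% of them, against 9.77% and 4.66% of intron peaks.

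Among the peaks of both libraries, 984 coding exon pairs matched one to one. Deposited signal was higher in replicate 1 in 641 of them (65.1%), although its scaling between the libraries is not known. The log2 difference, replicate 1 less replicate 2, had a median of 0.23 and an SD over pairs of 0.59. In introns the median was −0.06 over 19252 pairs. By mean GC of the pair, the coding median was −0.17 below 50% (153 pairs), 0.05 from 50 to 60% (458 pairs) and 0.43 at 60% or more (373 pairs). Signal differed by less than 2-fold in 88.6% of the coding pairs. Across the 984 pairs, which share the same 2 libraries, Pearson's r of log2 signal was 0.76 and Spearman's rank correlation 0.74.

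**Figure D3:**
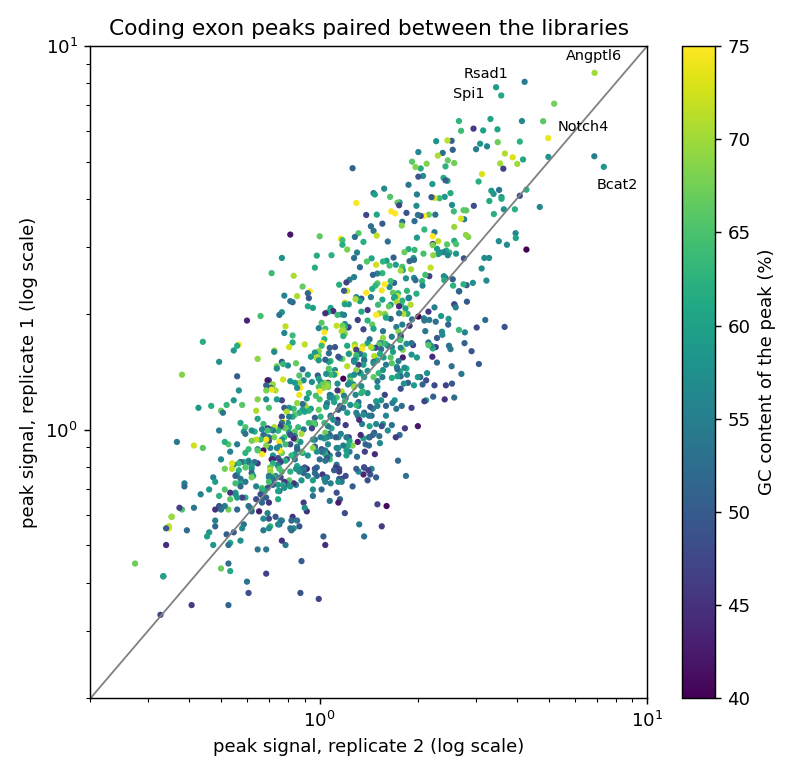
Each point is 1 of 984 paired coding exon peaks, with signal in replicate 2 (horizontal, log scale) against replicate 1 (vertical, log scale), coloured by GC content, and a line of equal signal. More points, 65.1%, lie above the line, and those of high GC content (yellow and green) lie above it more than those of low GC content (dark).

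Strong peaks were found again far more often than weak ones. Coding exon peaks were put into 4 classes of equal size by signal. From the weakest class to the strongest, 56.8%, 75.3%, 84.9% and 95.6% of those in replicate 1 were found again in replicate 2. The shares in replicate 2 were 20.5%, 48.6%, 72.3% and 96.5%. The share with a footprint went from 68.8% in the weakest class to 99.2% in the strongest in replicate 1, and from 62.6% to 99.0% in replicate 2. Peaks of a single library numbered 336 and 785, with median signals of 0.772 and 0.567 against 1.23 and 1.13 for the shared ones. Of these, 177 (52.7%) and 360 (45.9%) overlapped the longer, more permissive peak list of the other library.

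**Figure D4:**
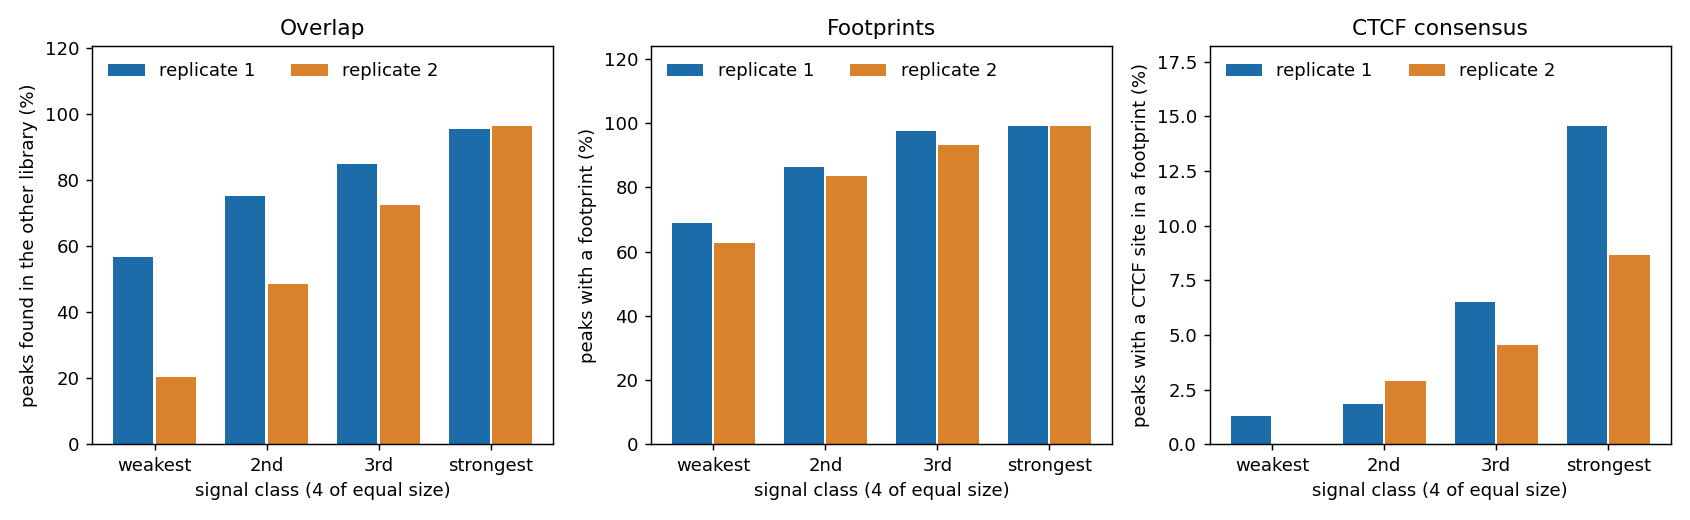
Bars give, for 4 equal classes of the coding exon peaks by signal, the percentage found in the other library (left), with a footprint (middle) and with a CTCF consensus in a footprint (right), in replicate 1 (blue) and replicate 2 (orange). Each measure is higher in the strongest class than in the weakest in both libraries, for overlap 95.6% against 56.8% and 96.5% against 20.5%.

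The strongest coding exon peaks of both libraries lay in genes of many functions. Of the 12 with the highest mean signal in genes with a standard symbol, 11 matched one to one. In deposited signal, whose scaling between the libraries is not known, 10 of these were higher in replicate 1. The Crlf2 peak of replicate 2 covered 2 peaks of replicate 1. They lay in 6 internal, 4 last and 2 first coding exons, at least 1207 bp from a TSS. Angptl6, which encodes a secreted angiopoietin-like protein, led with a signal of 8.51 and 6.91 (7.71 ± 1.13, SD, n = 2), in a peak that was 220 bp wide in replicate 1 and 60 bp in replicate 2. Rsad1, a radical SAM family protein, had 8.06 and 4.22 (6.14 ± 2.71) over coding exon 5 of 9 (chr11:94544061-94544220). Bcat2, the mitochondrial branched-chain aminotransferase, had 4.84 and 7.37 (6.10 ± 1.78) over its last coding exon, of which only 36 bp are coding (chr7:45589201-45589420). By deposited signal, Bcat2 was the only one of the 11 one-to-one matches that was higher in replicate 2.

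Spi1, which encodes the myeloid and microglial transcription factor PU.1, had 7.81 and 3.46 (5.63 ± 3.07) in its last coding exon. Its spread between the libraries was the widest of the 12. Def6, a guanine nucleotide exchange factor of lymphocytes, had 6.37 and 4.81 (5.59 ± 1.10) in coding exon 9 of 11. Crlf2, a subunit of the receptor for the cytokine TSLP, had 4.64 and 6.48 (5.56 ± 1.30) over coding exon 3 of 8 (chr5:109556781-109557240). The 760 bp peak of replicate 2 also overlapped a second peak of replicate 1, in coding exon 2 of 8, with a signal of 7.23, so that the direction depends on the match. Hook2, a microtubule linker, had 7.43 and 3.58 (5.51 ± 2.72) in coding exon 15 of 22.

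Notch4, a Notch receptor of endothelial cells, had 5.75 and 4.98 (5.37 ± 0.543). Synpo2l, an actin-binding protein of muscle, had 5.14 and 4.99 (5.07 ± 0.105), the closest match of the 12. Hip1r, a clathrin and actin adaptor, had 6.37 and 4.14 (5.26 ± 1.58) in coding exon 27 of 32. All 3 had a higher deposited signal in replicate 1. The share of coding exon peaks of the same library with a lower signal was 99.0% and 99.6% for Notch4. It was 97.9% and 99.7% for Synpo2l, and 99.3% and 99.2% for Hip1r. By that rank, only Hip1r of these 3 was higher in replicate 1. Epg5, an autophagy tether, had 6.45 and 3.32 (4.89 ± 2.21) in coding exon 32 of 44. Psmc2, an ATPase of the proteasome cap, had 5.63 and 4.08 (4.86 ± 1.10) in coding exon 1 of 12. With a TSS distance of 2 kb, Angptl6, Def6, Crlf2 and Psmc2 were no longer counted. When at least 50% of the peak had to be coding, Rsad1, Bcat2 and Crlf2 were no longer counted. Their coding part in replicate 1 was 64 of 160 bp in Rsad1, 36 of 220 bp in Bcat2 and 167 of 460 bp in Crlf2. By the comprehensive annotation Crlf2, Hook2, Notch4 and Hip1r were within 1 kb of a TSS.

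**Figure D5:**
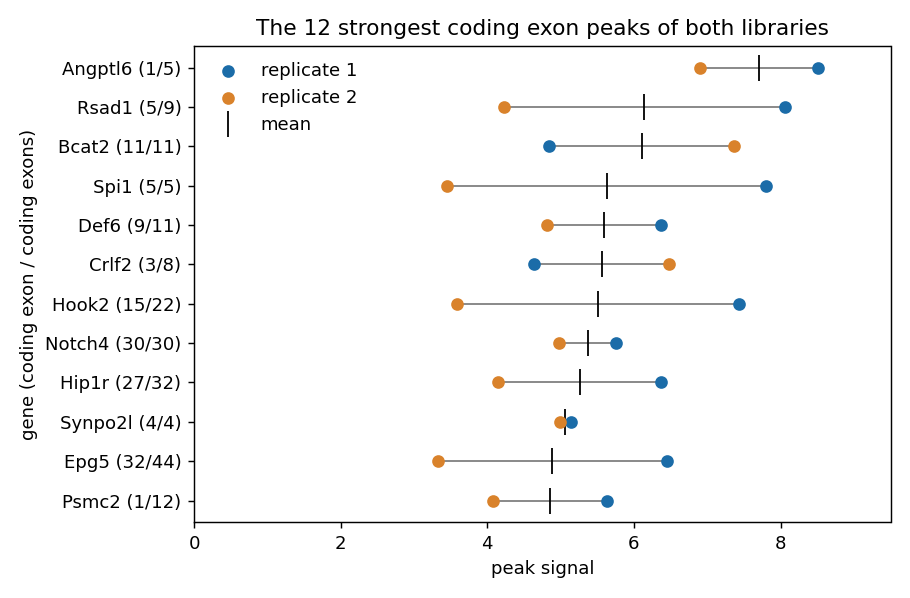
Points give peak signal in replicate 1 (blue) and replicate 2 (orange) for the 12 strongest coding exon peaks of both libraries, with a tick at the mean and the coding exon out of all coding exons beside each gene. Replicate 1 is to the right in 10 of the 12, with Bcat2 and Crlf2 the other way round, and a second Crlf2 peak of replicate 1, at 7.23, is not drawn.

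By position, and in genes with a standard symbol, the strongest peaks in single coding exons were in Crh, Rimbp3 and Apold1. Crh, which encodes corticotropin-releasing hormone, had a signal of 4.94 and 2.12 (3.53 ± 1.99, SD, n = 2; chr3:19693981-19694160). Rimbp3 had 4.14 and 2.51 (3.32 ± 1.15), and Apold1, an early-response gene of endothelial cells, had 4.02 and 2.24 (3.13 ± 1.26). Each was higher in replicate 1. In first coding exons, Slc1a6, a neuronal glutamate transporter, followed Angptl6 and Psmc2 with 3.65 and 3.40 (3.53 ± 0.174; chr10:78787781-78788040). Among genes with a standard symbol, the last coding exons were led by Bcat2, Spi1 and Notch4.

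The peaks with the most footprints were not the strongest ones, apart from Crlf2, which had 9 and 12 footprints. Exoc3l2 led with 14 and 11 footprints in coding exon 2 of 11 (chr7:19473901-19474500), at a signal of 2.27 and 1.27. Tchh, the hair follicle protein trichohyalin, had 12 and 8 (chr3:93444501-93444900) at 1.67 and 1.52. Asb18 had 9 and 10 at a signal of 1.25 and 0.574, and Lactbl1 had 5 and 13 at 1.87 and 1.13. These 5 peaks were wide, at 360 to 600 bp in replicate 1 and 480 to 760 bp in replicate 2, and wider peaks have more room for footprints. Those in Exoc3l2, Crlf2 and Asb18 did not match one to one. The Asb18 peak was 360 bp wide in replicate 1 and 680 bp in replicate 2.

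Among the 14 consensus sequences, CTCF and the E-boxes CAGCTG and CAGATG were the most frequent in footprints of coding exon peaks. CTCF had a site in a footprint in 93 (6.06%) and 78 (4.03%) of the coding exon peaks, against 9.30% and 4.86% of intron peaks. Of the CTCF sites in coding exon peaks, 97.9% and 95.1% were in a footprint, against 97.3% and 93.7% in intron peaks. The E-boxes are the shortest of the 14, and a CTCF site can itself contain CAGATG. Of their sites in coding exon peaks, 24.2% and 22.6% were in a footprint for CAGCTG and 33.3% and 30.8% for CAGATG. By class of signal, from weakest to strongest, CTCF peaks numbered 5, 7, 25 and 56 in replicate 1 and 0, 14, 22 and 42 in replicate 2. For 0 of 484 peaks in the weakest class of replicate 2, the upper limit taken was 3 in 484, or 0.620%. That limit treats the peaks of 1 library as independent draws, which was not tested. The median signal of CTCF peaks was 2.16 and 1.35, and 81.7% and 94.9% of them were found in the other library. All coding exon peaks had a median signal of 1.07 and 0.807 and overlap shares of 78.1% and 59.5%. The strongest class of coding exon peaks had overlap shares of 95.6% and 96.5%, and all distal peaks 86.9% and 49.2%. In both libraries at once, 68 CTCF sites in 67 genes were in a footprint, 58 of them wholly in coding sequence.

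Other factors differed from introns in either direction. The EGR consensus was in a footprint in 1.11% and 0.878% of coding exon peaks and in 0.216% and 0.138% of intron peaks. AP-1, searched as TGANTCA with any base at N, was at 0.847% and 2.12% against 2.33% and 5.03%. This pattern was thus lower in coding exons in both libraries. NFI was at 0.847% and 0.568% against 0.894% and 0.504%, with no common direction. The E-box CAGCTG was present, in or out of a footprint, in 24.4% and 25.8% of coding exon peaks and in 17.2% and 17.9% of intron peaks. CAGATG was at 20.6% and 25.1% against 22.7% and 26.1%. MEF2 sites, in or out of a footprint, were rare, at 0.0651% and 0.103% against 0.518% and 1.03%. The coding shares rest on 1 and 2 peaks. In a footprint, MEF2 was at 0.0651% and 0.0517% of coding exon peaks against 0.0734% and 0.308% of intron peaks. The EGR consensus is rich in GC and the MEF2 consensus in AT, coding exon peaks had more GC than intron peaks, and the part of base composition in these shares was not tested. Footprints of both libraries held 10 EGR sites, in Frem2, Gdf15, Rasip1, Dennd2a, Kcnk12, Mast1, Epn1, Hdac5, Kmt2a and Corin, named after their count was seen. By the same count, 9 NFI, 3 AP-1 and 3 NRF1 sites were in footprints inside the coding exon peaks of both libraries, with overlapping NFI matches counted separately.

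Coding exon peaks were spread over many genes. They lay in 1313 and 1652 genes of 18631 protein-coding genes with distal coding sequence, 7.05% and 8.87% of them, and 978 genes (5.25%) had one in both libraries. That is 74.5% of the genes of replicate 1 and 59.2% of those of replicate 2. A single peak was found in 1150 and 1427 of the genes, and 40 and 45 genes held 3 or more. Of the host genes, 974 (74.2%) and 1261 (76.3%) also had a peak within 1 kb of their own TSS, against 66.6% and 67.0% of all these genes. Host genes were long, with medians of 33.0 and 41.0 kb against 20.1 kb, and had more distal coding sequence, 1833 and 1837 bp against 1097 bp.

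The 10 genes with the most coding exon peaks ranged from 1 coding exon, in Fzd8, to 145, in Syne1. Tchh held 9 and 6 peaks, all in a single exon with 4659 coding bp, and 6 of them were matched between the libraries. Syne1, which encodes the nuclear envelope protein nesprin-1, held 7 and 6, each in another exon. Sptbn4, the beta spectrin of axon initial segments, held 4 and 3. Wnt10a, a Wnt ligand, held 3 and 4, and Fzd8, a Wnt receptor, 4 and 3 in its only coding exon. Myh14, a non-muscle myosin, and Llgl1, a cell polarity protein, held 4 and 3, and Focad held 3 and 4. The protocadherin Pcdh17, a homophilic adhesion protein, held 3 and 4 in 1 exon. Its relative Pcdh10 held 6 and 1, the widest difference among these 10 genes.

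Gene lists were read against the 7.05% and 8.87% of all testable genes, and their members are few. Cell type marker lists lay on both sides of the background. Of 18 testable oligodendrocyte markers, 0 had one in either library, and of 20 inhibitory neuron markers 1 and 0. Pan-neuronal markers had 2 and 1 of 17, led by Syn2, a synaptic vesicle protein, at 1.15 and 0.908 (1.03 ± 0.170, SD, n = 2), and by Rbfox3, at 0.963 in replicate 1 only. Excitatory neuron markers had 2 and 4 of 20, with Bhlhe22 at 0.798 and 0.594 and Tle4 at 0.687 in replicate 2 only. Per Mb of distal coding sequence, excitatory markers had 83.6 and 167 peaks, from 3 and 6 peaks, and pan-neuronal markers 77.9 in each library, from 2. Over all genes there were 54.8 and 69.1. The inhibitory marker with a peak was Sox6, at 0.587 in replicate 1.

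Astrocyte markers had 2 and 3 of 19, 101 peaks per Mb in each library from 3 peaks, with the intermediate filament gene Gfap at 0.930 and 0.874 (0.902 ± 0.0397). Microglial markers had 1 of 19 in each library, which was Spi1. Endothelial and mural markers also had 1 of 19, Notch3, at 2.74 and 1.56 (2.15 ± 0.837). Of 23 testable liver and blood genes, 3 had a peak in each library. Klf1, an erythroid transcription factor, had 5.67 and 2.46 (4.06 ± 2.28; chr8:84903101-84903280), and Apoa1, an apolipoprotein of liver, 3.95 and 3.30 (3.62 ± 0.459; chr9:46229941-46230220). Both means were above that of every other gene on the lists except Spi1.

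Cytoskeleton and large scaffold genes had a peak in 9 of 20 in each library, 7 in both, at a median of 6829 bp of distal coding sequence. Per Mb this list had 110 and 97.7 peaks, above all genes in both libraries. Sptbn4 led it at 3.17 and 1.98 (2.57 ± 0.838), and Dst, the cytolinker dystonin, had 3.09 and 1.61 (2.35 ± 1.05). Voltage-gated channel genes had 6 and 7 of 27, 5 in both, and 123 and 95.0 peaks per Mb. Cacna1a, a P/Q-type calcium channel subunit, had 3.61 and 2.08 (2.85 ± 1.08), and Scn8a, a sodium channel of axons, 3.27 and 2.24 (2.76 ± 0.729).

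Genes of synaptic release and scaffolds had 6 of 29 in each library, 5 in both, at 67.9 and 87.3 per Mb. Their leaders were the vesicle priming factors Unc13a, at 3.38 and 2.58 (2.98 ± 0.567), and Unc13b, at 1.97 and 2.00 (1.99 ± 0.0206). Chromatin regulators had 7 of 29, 6 in both, at 54.8 per Mb in each library, which is below all genes in replicate 2. The corepressor Ncor1 had 1.79 and 2.78 (2.29 ± 0.694) and the histone methyltransferase Kmt2a 2.41 and 1.69 (2.05 ± 0.514). Immediate-early genes had 3 of 18, 2 in both, with Jun at 2.23 and 1.73 (1.98 ± 0.355) and Klf4 at 1.39 and 0.867 (1.13 ± 0.366). Their 215 and 161 peaks per Mb rest on 4 and 3 peaks.

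Axon guidance genes had 6 and 4 of 29, with the receptor Robo3 at 1.35 and 1.24 (1.29 ± 0.0741) and the ligand Efnb2 at 1.04 in coding exon 5 in replicate 1 and 1.03 in coding exon 4 in replicate 2. The exon 5 peak of Efnb2 had 0.801 in replicate 2. Collagen and laminin genes had 4 and 5 of 30, with Col4a2 at 1.66 in coding exon 21 in replicate 1 and 1.81 in coding exon 33 in replicate 2, and Lama4 at 1.38 and 0.561 (0.970 ± 0.579). In Col4a2 the exon 21 peak had 0.561 in replicate 2 and the exon 33 peak 1.32 in replicate 1. At 33.9 and 50.9 peaks per Mb, the collagen and laminin list was below all genes in both libraries.

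The strongest coding exon peaks without a partner in the other library were weaker than the shared leaders. In replicate 1 they lay in Chpf (2.86), Ccdc142 (2.59), Cdh22 (2.53), Hif3a (2.41) and Pdzd7 (2.25). In replicate 2 they lay in Pih1d1 (1.84), Cacnb1 (1.76), Ank3 (1.67), Tusc3 (1.65) and Bahcc1 (1.63). Of these 10, 9 overlapped a peak in the longer list of the other library. The exception was Chpf, the chondroitin polymerising factor, at chr1:75477241-75477440. Another Chpf peak in the same coding exon, at chr1:75477501-75477680 in replicate 1, was found in both libraries, with 4.01 and 2.32.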

How the data were processed

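DNase-seq peaks and footprints of 2 libraries were analysed from lists on mm10. Per the deposited notes, the authors called peaks and footprints in each library from its own alignments. The sources used here do not give the aligner, the caller or the thresholds. The authors' peak signal is deposited as 1 value per peak, with no stated scaling. The shorter of the 2 deposited peak lists was used. Footprints carry a constant value in the files, so only their coordinates were used. Sequencing depth is not in the files used, and the lists hold 73221 and 111105 peaks.

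Peaks were placed with GENCODE M21 basic and GRCm38.p6. A footprint belonged to the peak that held its midpoint, and a consensus site was in a footprint when its centre was. Genes named are the 12 strongest shared peaks, the 10 genes with the most peaks, the 5 strongest of each library alone, the 5 with the most footprints, the 3 strongest per exon position, the leading 2 of each of 15 gene lists and the peaks next to the 1 kb limit. Printed sequences were taken from chromosomes other than 18, and predicted genes without a standard symbol stay in counts. A gene that this rule names is not reported here. The basic annotation and the edge distance were set once the files were seen. The peaks and gene lists were chosen with earlier results of these data known. Overlaps, shares and medians were computed with Python 3.11.15, numpy 2.4.6 and pandas 2.3.3, checked on simulated peaks. Values are given per library, with mean ± SD (n = 2), and no test was made. Alternatives changed the TSS distance, the coding rule, the peak list, the annotation, the overlap and the exon count, and left out each library.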

Additional observations from a re-analysis of the deposited data

How the results depend on the processing

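Values here are means over both libraries unless named. No paired analysis was possible because there is a single group and no contrast. The overlap share and the GC content stayed within 1 SD between libraries under every alternative run for them. With 2 libraries, leaving out either one always meets this limit, and the SD of the overlap share is wide, at 13.2 percentage points. Equal numbers of strongest peaks met it too, although the overlap share changed from 78.1% to 66.8% in replicate 1 and from 59.5% to 78.6% in replicate 2. The median log2 signal difference of shared peaks was 0.16 to 0.26 over 12 alternatives. A TSS distance of 500 bp gave internal, first and last shares of 56.5%, 12.6% and 20.9% and a footprint share of 82.8%, and a distance of 2 kb gave internal and first shares of 68.2% and 4.20%. Counting any overlap with coding sequence gave 2946 peaks, 4.74% of distal peaks and 51.0% of footprint bases in coding sequence, and position and gene counts were not recomputed there. The longer lists gave 3201.5 peaks in 2505 genes, a last share of 22.0%, a median signal of 0.627 and a footprint share of 76.3%. Equal numbers of strongest peaks gave a footprint share of 90.9%. Position counted over all exons gave 67.8%, 2.63% and 27.1% for internal, first and last, and the comprehensive annotation, added after seeing the data, gave 58.6% internal and 27.7% last. The cause of these shifts was not tested. Leaving out either library gives the other's value, so counts ran from 1535 to 1936.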
